A study of Mus musculus with 6 samples.

Results

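Glycolysis, lactate transport and hypoxia genes were compared between AC29 and AB1, a pair of mouse malignant mesothelioma cell lines. The set was defined by a list of 41 gene symbols, and a gene was read from probe sets that the array annotation assigned to that symbol alone. By this rule 39 of the 41 genes were found. Of these, 38 were among the 18193 genes tested, and Gapdh was represented only by the control probe sets of the array. Gpi1 and Eno1 had no probe set with a single symbol in the annotation used and were not analysed here. Where a gene had several probe sets, the one with the highest mean over the 6 arrays was used and the others served as a check.

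The AC29 line was raised in a CBA mouse and used at passage 60, and the AB1 line was raised in a BALB/c mouse and used at passage 40. The labels give both as female mice of 6 to 8 weeks, and both lines were induced with asbestos. Cells grew in RPMI 1640 with 5% foetal calf serum, and 3 flasks per line were harvested at 80% confluency, with total RNA from each flask on 1 Affymetrix 3′ expression array. The labels name no hypoxic treatment and no oxygen level. Line, strain and passage coincide and cannot be told apart, nothing in the labels says whether a line is 1 clone, and the error behind each p-value is that between flasks. A lower signal can come from fewer cells that carry a transcript or from less transcript per cell, which arrays of whole cultures cannot tell apart.

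Glycolysis splits glucose into pyruvate in the cytosol. Lactate dehydrogenase turns pyruvate into lactate, which leaves the cell through monocarboxylate transporters, and this route stays active in many tumour cells even where oxygen is present. When oxygen is scarce, prolyl hydroxylases no longer mark the alpha subunits of the hypoxia-inducible factors (HIF) for breakdown, and the stabilised factor binds a short motif, ACGTG or GCGTG, near genes of glucose uptake, glycolysis, pH control, autophagy and collagen processing.

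All values are log2 signals made with RMA, a method that corrects background, normalizes arrays and summarises the probes of a set. A floor of 6.07 was the 95th percentile of 86 probe sets for olfactory, vomeronasal and taste receptors, and a fold against a line with no array above it is given as a lower bound. Pearson's r across genes was 0.995 to 0.997 within AC29, 0.997 to 0.998 within AB1 and 0.937 to 0.938 between the lines. AC29 replicate 14 stood apart from the other AC29 arrays on the second principal component, which held 2.86% of the variance, and read highest for the middle of 18S rRNA (8.53, against 7.43 to 7.91 on the other arrays). Of 9 mesothelial markers, all were above the floor in AC29 and 5 in AB1. Of the markers of other cells, 2 of 6 for macrophages, 3 of 6 measured for lymphocytes and 2 of 6 for endothelium were above the floor in each line, none over 7.01 apart from Esam. Csf1r, Cd3e, Cd4, Cd8a and Kdr were above it in both lines, the brightest being Cd3e (7.01 in AC29, 6.83 in AB1), while Ptprc, Adgre1, Aif1, Cd3d, Cd79a, Ms4a1, Pecam1, Cdh5, Tek and Emcn were at or under it in both. Esam, an adhesion protein on the endothelial list, was at 10.59 in AC29 and 6.17 in AB1.

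Glycolysis, lactate and hypoxia genes differed between the lines in both directions. The call rule asked for a limma p-value under 0.05 after adjustment together with a difference of 2-fold or more. By this rule 8 of the 38 tested members were higher in AC29 (21.1%, against 5.12% of all genes tested) and 6 were lower in AC29 (15.8%, against 5.82%). Together they made 36.8% of the members, against 10.9% of all genes tested, 15.4% of the genes with a mean above the floor and 16.4% of the 11647 genes with a line above it. All 38 tested members had a line above the floor. Slc16a3, Slc2a3, Aldoc and Pfkfb3 were called higher in AC29 and Hk1, Egln3 and Epas1 lower. Among the members, each was the only called gene of its family, while the phosphofructokinase subunits Pfkm and Pfkl were called in opposite directions. For 32 members no AC29 array fell within the AB1 range or the reverse (84.2%, against 50.1% of all genes tested and 66.3% of those with a line above the floor). Likewise 32 passed an adjusted p under 0.05 with no minimum fold, against 39.1% of all genes tested, and 6431 of the 11647 genes with a line above the floor did. The median difference over the members was -0.17 and the median absolute difference 0.76, against 0.00 and 0.20 over all genes tested and 0.35 for the absolute difference over the genes with a line above the floor. Without AC29 replicate 14 the members' counts were 8 higher and 7 lower.

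**Figure D1:**
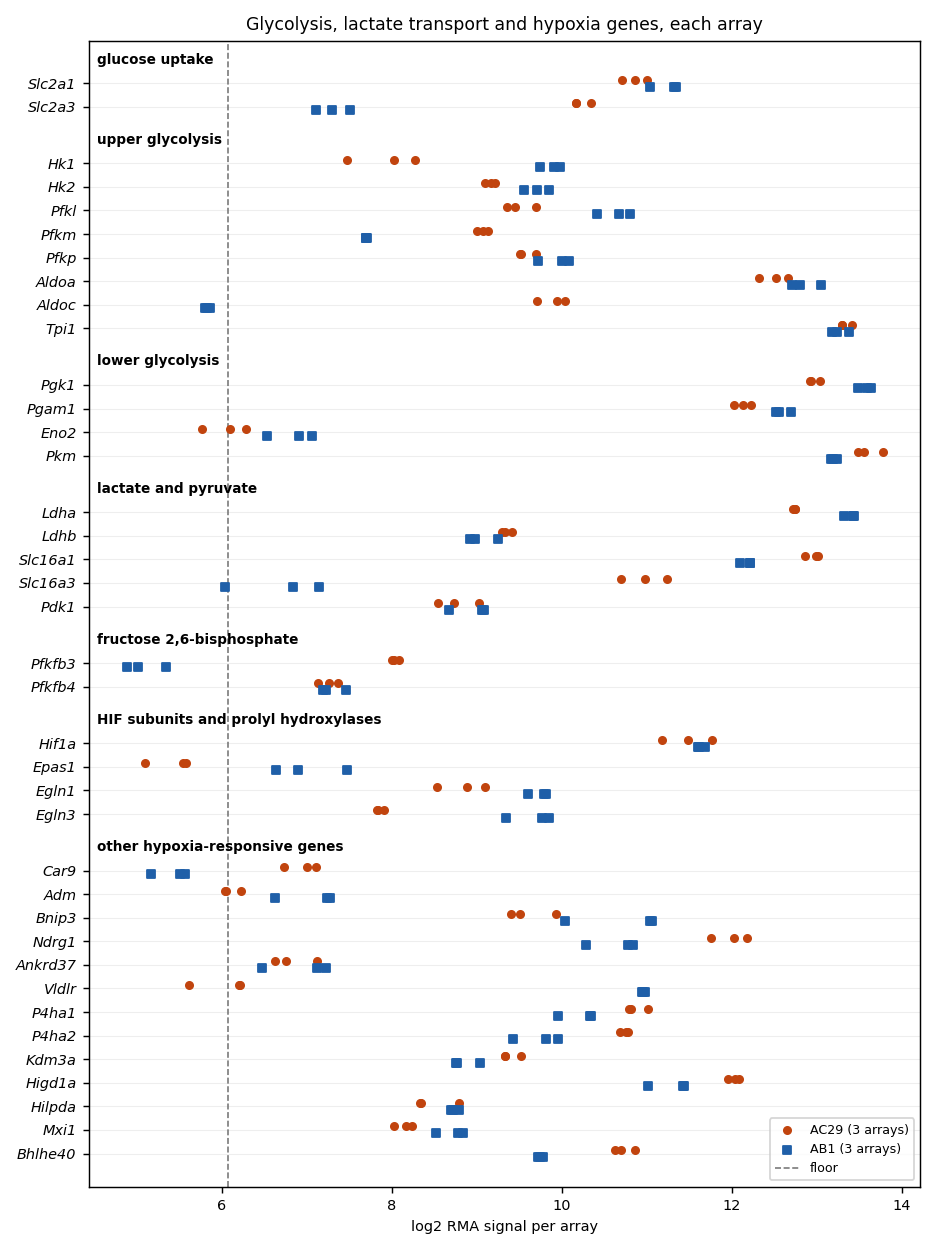
Log2 RMA signal of each tested member on each array, with AC29 as circles and AB1 as squares and the floor of 6.07 as a dashed line. Aldoc and Pfkfb3 lie under the floor in AB1 and well above it in AC29, and Vldlr lies near the floor in AC29 and between 10.94 and 10.97 in AB1.

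**Figure D2:**
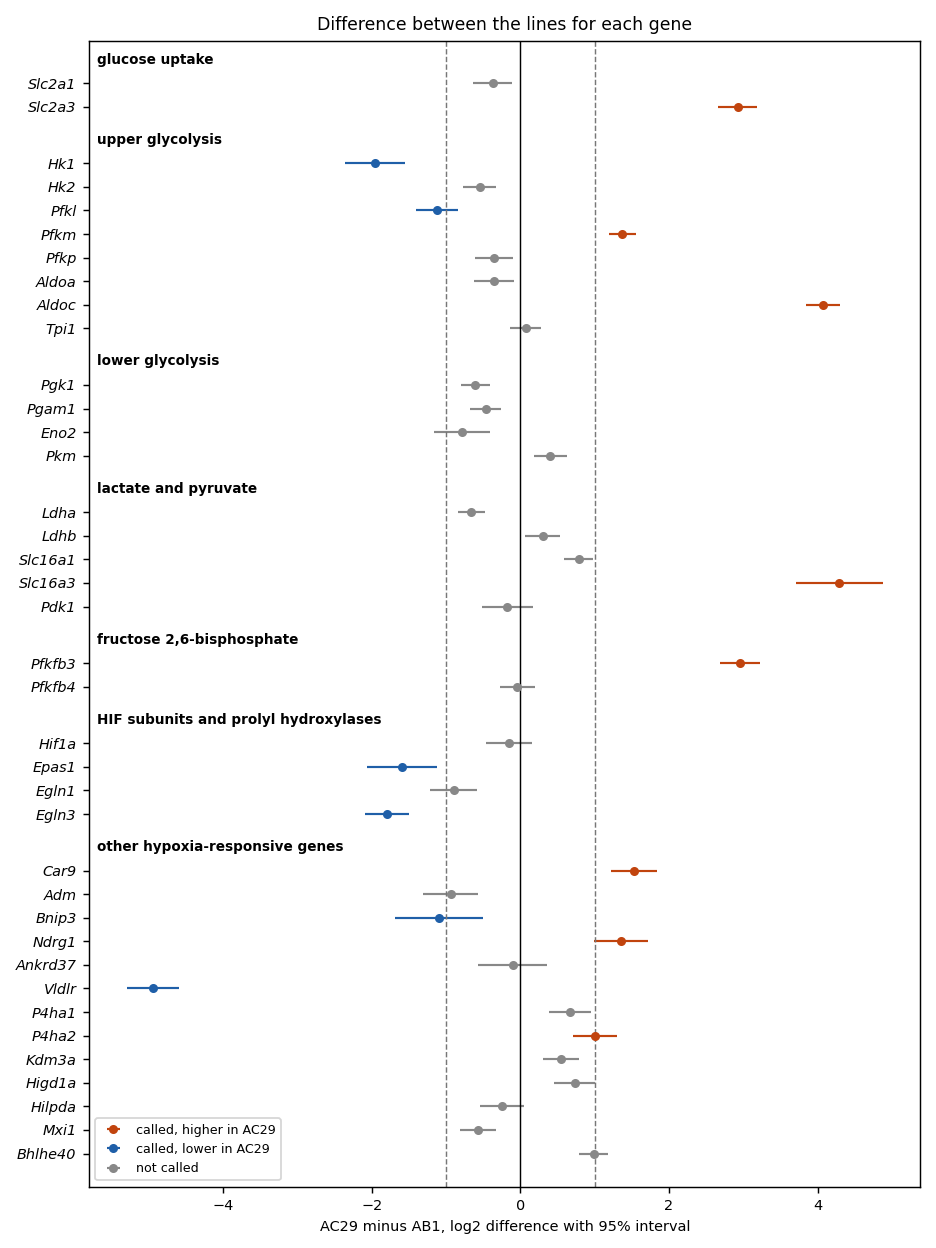
Difference of mean log2 signal, AC29 minus AB1, for each tested member with its 95% interval from limma. Dashed lines mark 2-fold differences, and 8 members are called higher and 6 lower in AC29.

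The HIF motif was looked for in the RefSeq promoter windows of the members, which hold 250 bases before a transcript start and 50 from it on (build GRCm38.p6). A window was found for 37 of the 41 listed genes, and 25 of the 37 held ACGTG on either strand in at least 1 window (67.6%, against 26.1% of the 14452 tested genes with a window). Counted by window, 29 of 56 held it (51.8%, against 22.9% of the windows of all genes tested and 19.6% of all windows). GCGTG was held by 24 of the 37 genes (64.9%, against 47.8%). The members were listed as glycolysis and hypoxia genes, several of them known HIF targets. High shares can follow from how the list was made, and base composition was not matched. ACGTG is also part of CACGTG, a motif read by other factors, and CACGTG counts on both strands. Among called members with a window, ACGTG was held by 6 of 6 genes higher in AC29 and by 3 of 5 lower in AC29, and among the members not called by 15 of 23. Genes with several windows were counted once, by any window, and a link between motif and direction was not tested. The stretches below show genes on each side of the comparison, printed 5′ to 3′ on the strand of the gene with every ACGTG or GCGTG, in either orientation, in capitals. Slc16a3, Car9 and P4ha2 were higher in AC29, Egln3, Bnip3 and Vldlr were lower in AC29, and Pgk1, Ldha and Ankrd37 were not called.
Slc16a3 chr11:120948957-120949066 (plus strand): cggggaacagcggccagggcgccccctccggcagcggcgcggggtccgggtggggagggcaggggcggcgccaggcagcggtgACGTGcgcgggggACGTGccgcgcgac
Car9 chr4:43506926-43507025 (plus strand): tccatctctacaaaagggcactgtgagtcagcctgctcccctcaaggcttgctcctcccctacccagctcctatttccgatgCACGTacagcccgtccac
P4ha2 chr11:54100804-54100903 (plus strand): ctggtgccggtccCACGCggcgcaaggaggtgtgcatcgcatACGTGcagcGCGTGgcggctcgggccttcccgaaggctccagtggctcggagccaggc
Egln3 chr12:54204025-54204124 (minus strand): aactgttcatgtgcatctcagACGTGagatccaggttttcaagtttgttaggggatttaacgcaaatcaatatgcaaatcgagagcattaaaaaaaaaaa
Bnip3 chr7:138909527-138909636 (minus strand): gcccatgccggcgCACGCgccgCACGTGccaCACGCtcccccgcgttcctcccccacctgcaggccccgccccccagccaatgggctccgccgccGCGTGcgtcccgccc
Vldlr chr19:27216384-27216483 (plus strand): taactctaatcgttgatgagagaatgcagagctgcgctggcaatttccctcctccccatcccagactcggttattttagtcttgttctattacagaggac
Pgk1 chrX:106186920-106187019 (plus strand): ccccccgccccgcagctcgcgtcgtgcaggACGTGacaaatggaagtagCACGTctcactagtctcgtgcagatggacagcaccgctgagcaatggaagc
Ldha chr7:46845644-46845783 (plus strand): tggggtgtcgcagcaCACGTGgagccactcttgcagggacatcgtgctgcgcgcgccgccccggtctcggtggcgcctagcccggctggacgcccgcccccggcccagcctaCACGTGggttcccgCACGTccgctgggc
Ankrd37 chr8:45999941-46000020 (minus strand): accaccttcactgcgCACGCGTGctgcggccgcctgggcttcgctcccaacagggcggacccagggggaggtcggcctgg
In Slc16a3 both matches start 27 and 14 bases before the transcript start (positions -27 and -14), and Car9 has 1 match at position -18. Bnip3 has 5 matches between positions -117 and -35, and the printed stretch of Ldha has 5 between -145 and -34, of which 4 come from CACGTG read on both strands. The windows of Vldlr held no match. Matches are letters in a window and were not tested as binding sites.

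Of the glucose transporters, Slc2a3 was higher in AC29 and Slc2a1 was not called. Slc2a3 encodes the high-affinity transporter GLUT3 and read 10.17, 10.17 and 10.34 in AC29 flasks, against 7.30, 7.51 and 7.12 in AB1 flasks. The groups lay far apart, a difference of 2.92 ± 0.11 (SE), or 7.57-fold (adjusted p = 6.58e-08). Its 3 other probe sets passed the rule in the same direction, with differences of 1.76 to 2.77. All 3 had an AB1 mean under the floor (4.86 to 5.85), so these sizes are not exact. Slc2a1, the widely expressed transporter GLUT1, read 11.00, 10.86 and 10.71 in AC29, against 11.34, 11.32 and 11.04 in AB1. All AC29 flasks were lower than all AB1 flasks, but the difference of -0.37 ± 0.11 (adjusted p = 0.0283) was under the 2-fold minimum.

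Among the enzymes that carry glucose to triose phosphates, Pfkm and Aldoc were higher in AC29 and Hk1 and Pfkl were lower. Hk1, the hexokinase found in most tissues, read 8.03, 7.48 and 8.27 in AC29, against 9.91, 9.98 and 9.75 in AB1. The groups did not overlap, AC29 replicate 14 was the lowest, and the difference was -1.96 ± 0.18 (3.88-fold, adjusted p = 2.28e-05). Hk2, the hexokinase often raised in tumours and induced by HIF, read 9.16 ± 0.06 in AC29 and 9.71 ± 0.15 in AB1 (SD, n = 3) and stayed under the minimum at -0.55 (adjusted p = 0.00156).

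The phosphofructokinase subunits, which form the committed step of glycolysis, went in different directions. Pfkm, the muscle-type subunit, read 9.08, 9.005 and 9.13 in AC29, against 7.70, 7.70 and 7.71 in AB1. Its flasks were close to each other in both lines and the lines differed by 1.37 ± 0.08 (2.58-fold, adjusted p = 1.04e-06). Pfkl, the liver-type subunit, read 9.45, 9.36 and 9.69 in AC29, against 10.80, 10.67 and 10.42 in AB1. The difference was -1.13 ± 0.13 (2.18-fold lower in AC29, adjusted p = 7.85e-05), while another probe set above the floor stood at -0.92, under the minimum. The mean of the 3 probe sets was also under it at -0.58, but includes one at 0.31 that was under the floor in both lines. Pfkp, the platelet-type subunit, was lower in AC29 by less than 2-fold (-0.36, adjusted p = 0.0321).

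Aldoc, an aldolase best known from brain, was near background in AB1 and well expressed in AC29. It read 9.94, 9.70 and 10.03 in AC29, against 5.80, 5.82 and 5.86 in AB1, all AB1 flasks being under the floor, so that AC29 was at least 14.1-fold higher (adjusted p = 4.08e-09). Its other probe set was under the floor in both lines. Aldoa, the main aldolase of most cells, read 12.50 ± 0.17 in AC29 and 12.86 ± 0.17 in AB1 (SD, n = 3), and its 4 other probe sets differed by -0.42 to -0.35, none past the rule. Tpi1, which interconverts the triose phosphates, read 13.33 ± 0.07 in AC29 and 13.26 ± 0.11 in AB1 with overlapping flasks (0.07, 95% interval -0.13 to 0.28).

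None of the 4 tested members of lower glycolysis was called in limma. All 4 passed at an unadjusted p under 0.05 and at an adjusted p under 0.05 without the fold minimum. Of the 11647 genes with a line above the floor, 7233 passed the first and 6431 the second. Pgk1, the kinase that makes the first ATP of the pathway, read 12.96 ± 0.07 in AC29 and 13.57 ± 0.08 in AB1 (-0.61, adjusted p = 0.000362). Pgam1, a mutase, differed by -0.46 and Eno2, the neuronal enolase, by -0.78, and Eno2 was near the floor in AC29 at 6.05. Pkm, the pyruvate kinase of most non-liver cells, went the other way at 13.60 ± 0.15 in AC29 and 13.20 ± 0.04 in AB1 (SD, n = 3; 0.40, adjusted p = 0.00880). Gapdh, read from the brightest of 3 control probe sets and not tested, was at 14.33 ± 0.07 in AC29 and 14.22 ± 0.03 in AB1, a difference of 0.11, and such bright values are flattened on an array.

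Among the glycolysis and lactate members, the lactate exporter Slc16a3 had the widest difference in measured signal, although that of Aldoc is a lower bound. It encodes MCT4, a monocarboxylate transporter suited to lactate release and induced by HIF. It read 10.69, 10.98 and 11.24 in AC29, against 7.15, 6.84 and 6.04 in AB1. The lowest AC29 flask was far above the highest AB1 flask, AB1 replicate 6 was under the floor, and the difference was 4.29 ± 0.26 (19.6-fold, adjusted p = 1.22e-06). Slc16a1, which encodes the more general carrier MCT1, was high in both lines, at 12.99, 12.87 and 13.02 in AC29 and 12.21, 12.10 and 12.21 in AB1. It was higher in every AC29 flask, by 0.79 ± 0.09 (1.72-fold, adjusted p = 7.14e-05), under the minimum.

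The dehydrogenase subunits differed by less than 2-fold. Ldha, the form that favours lactate and is a HIF target, read 12.74 ± 0.02 in AC29 and 13.40 ± 0.06 in AB1 (SD, n = 3; -0.66, adjusted p = 0.000140), and Ldhb read 9.35 ± 0.06 in AC29 and 9.05 ± 0.17 in AB1 (0.30, adjusted p = 0.0469). Pdk1, the kinase that shuts pyruvate out of the citric acid cycle, read 8.77 ± 0.24 in AC29 and 8.94 ± 0.23 in AB1 with overlapping flasks (-0.17, 95% interval -0.51 to 0.16). Its probe sets did not give one answer: another stood at 0.07, while one more read 5.95 in AC29 and 7.91 in AB1 and passed the rule at -1.96. The AC29 mean of that last probe set was under the floor, so its size is not exact.

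Pfkfb3 and Pfkfb4 make fructose 2,6-bisphosphate, an activator of phosphofructokinase, and only the first was called. Pfkfb3 read 8.00, 8.02 and 8.08 in AC29, against 4.89, 5.02 and 5.34 in AB1. All AB1 flasks were under the floor, so AC29 was at least 3.90-fold higher (adjusted p = 8.24e-08), and a dimmer probe set differed by 0.88 in the same direction. That probe set also had an AB1 mean under the floor (5.68). Pfkfb4 read 7.26 ± 0.12 in AC29 and 7.30 ± 0.15 in AB1 (-0.04, 95% interval -0.28 to 0.20).

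HIF alpha subunits and their hydroxylases were either lower in AC29 or not called. Hif1a, the alpha subunit of HIF-1, read 11.77, 11.18 and 11.49 in AC29, against 11.60, 11.69 and 11.62 in AB1. The lines overlapped (-0.16, 95% interval -0.47 to 0.16), and no probe set of Hif1a passed the rule. The subunit is known to be controlled mainly through breakdown of the protein, which arrays do not measure. Epas1, which encodes HIF-2 alpha, read 5.58, 5.10 and 5.54 in AC29, against 6.90, 7.47 and 6.64 in AB1. All AC29 flasks were under the floor, and AC29 was at least 1.91-fold lower (adjusted p = 0.000227), but its other probe set was under the floor in both lines and the mean of both stood at -0.87, under the minimum.

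Egln3, the prolyl hydroxylase PHD3 that HIF itself induces, was lower in AC29. It read 7.84, 7.83 and 7.91 in AC29, against 9.77, 9.86 and 9.34 in AB1. The AC29 flasks lay close together and the difference was -1.80 ± 0.13 (3.48-fold lower in AC29, adjusted p = 4.83e-06), with a second probe set at -1.88. That probe set had an AC29 mean of 5.85, under the floor, so its size is not exact. Egln1, the main oxygen sensor PHD2, read 8.84 ± 0.28 in AC29 and 9.74 ± 0.11 in AB1 (SD, n = 3). Its difference of -0.90 ± 0.14 (adjusted p = 0.000686) was under the minimum, and past it at -1.03 without AC29 replicate 15. A second Egln1 probe set, above the floor in both lines (8.75 in AC29, 9.17 in AB1), differed by only -0.43.

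The 13 other hypoxia-responsive genes did not go one way: Car9, Ndrg1 and P4ha2 were higher in AC29, Vldlr and Bnip3 were lower, and 8 were not called. The share called was 38.5%, against 10.9% of all genes tested and 16.4% of those with a line above the floor. Vldlr, a lipoprotein receptor that HIF can induce, had the widest measured difference of all members. It read 6.22, 6.20 and 5.61 in AC29, near the floor, against 10.97, 10.94 and 10.96 in AB1. The difference was -4.95 ± 0.15 (adjusted p = 1.64e-08), taken from an AC29 mean of 6.01 that was itself under the floor, so no exact fold is given. Its 5 other probe sets passed the rule in the same direction, all 5 with an AC29 mean under the floor (3.55 to 4.67). Of these, 1 was under the floor in both lines (3.55 in AC29, 5.70 in AB1) and 1 was at 6.75 in AB1. Bnip3, a mitophagy receptor, read 9.41, 9.93 and 9.51 in AC29, against 11.06, 11.04 and 10.04 in AB1. AB1 replicate 6 lay close to AC29 replicate 14, and the difference of -1.09 ± 0.26 (2.14-fold, adjusted p = 0.00851) was under the minimum without AB1 replicate 4 (-0.92), AB1 replicate 5 (-0.93) or AC29 replicate 13 (-0.99).

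Car9, the surface carbonic anhydrase used as a hypoxia marker, read 7.002, 6.73 and 7.11 in AC29, against 5.51, 5.57 and 5.17 in AB1. It was above the floor only in AC29, at least 1.83-fold higher (adjusted p = 1.74e-05). Ndrg1, a stress-responsive gene induced by hypoxia, read 12.03, 11.76 and 12.18 in AC29, against 10.78, 10.84 and 10.29 in AB1. All its AC29 flasks were higher, by 1.35 ± 0.16 (2.55-fold, adjusted p = 0.000132), and its 4 other probe sets passed the rule at 1.32 to 1.5005.

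The collagen prolyl hydroxylase subunits, which hydroxylate procollagen, were higher in AC29, P4ha2 just past the minimum and P4ha1 under it. P4ha2 read 10.68, 10.76 and 10.77 in AC29, against 9.96, 9.82 and 9.43 in AB1. The difference of 1.003 ± 0.13 (2.00-fold, adjusted p = 0.000239) was under the minimum without AB1 replicate 6 (0.85), AC29 replicate 14 (0.99) or AC29 replicate 15 (0.99). P4ha1 read 10.87 ± 0.13 in AC29 and 10.21 ± 0.22 in AB1 (SD, n = 3; 0.67, adjusted p = 0.00209). Bhlhe40, a transcriptional repressor induced by HIF, lay just on the other side of the minimum at 0.98 ± 0.09 (adjusted p = 2.03e-05), and past it without AB1 replicate 5 or AC29 replicate 14.

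For 2 further genes the choice of probe set decided the call. Adm, which encodes the vasodilator adrenomedullin, read 6.11 ± 0.11 in AC29 and 7.05 ± 0.36 in AB1 (SD, n = 3), a difference of -0.94 (adjusted p = 0.00141). AC29 replicates 13 and 15 were under the floor there, at 6.04 and 6.05. Its other probe set passed at -1.45, but with an AC29 mean of 5.09, under the floor, against 6.54 in AB1, so that size is not exact. Without AB1 replicate 6 the difference of the first was -1.15 and past the rule. Higd1a, a mitochondrial protein induced by hypoxia, read 12.02 ± 0.07 in AC29 and 11.29 ± 0.24 in AB1, a difference of 0.73 (adjusted p = 0.00114), while a dimmer probe set passed at 1.96.

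The remaining hypoxia-responsive genes were under the minimum. Kdm3a, a histone demethylase, differed by 0.54 (adjusted p = 0.00296) and Mxi1, an antagonist of Myc, by -0.57 (adjusted p = 0.00241). Hilpda, a lipid droplet protein, read 8.49 ± 0.26 in AC29 and 8.74 ± 0.05 in AB1 (-0.25, 95% interval -0.54 to 0.05). Ankrd37, whose gene is a sensitive HIF target, read 6.84 ± 0.26 in AC29 and 6.94 ± 0.41 in AB1 (-0.11, 95% interval -0.56 to 0.35). For Hilpda and Ankrd37 the flasks of the lines overlapped.

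Members of a family were then set against each other within each array, in 11 pairs of related genes of the 12 listed, to ask whether one changed more than the other. In each of the 11 the within-array difference did not overlap between the lines. The exact 2-sided permutation p was 0.10 for each, the smallest that 3 against 3 arrays allow, also after adjustment over the pairs. Of single genes, 50.1% of all tested and 66.3% of those with a line above the floor did not overlap. The share over other gene pairs was not computed, so the count is not read as a trait of these families. Slc2a3 gained 3.29 ± 0.15 (SE) on Slc2a1 in AC29, Slc16a3 gained 3.51 ± 0.38 on Slc16a1 and Pfkm gained 2.496 ± 0.13 on Pfkl. Aldoc gained at least 4.18 on Aldoa and Pfkfb3 at least 2.00 on Pfkfb4, both with the AB1 level set to the floor. Hk2 gained 1.41 ± 0.25 on Hk1, although both were lower in AC29, and Ldhb gained 0.96 ± 0.09 on Ldha. Epas1 lost at least 0.78 against Hif1a with AC29 at the floor (-0.78), and Egln3 against Egln1 stood at -0.90 ± 0.17. The narrowest shifts were those of Pfkp against Pfkl (0.77 ± 0.04) and P4ha2 against P4ha1 (0.34 ± 0.08).

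**Figure D3:**
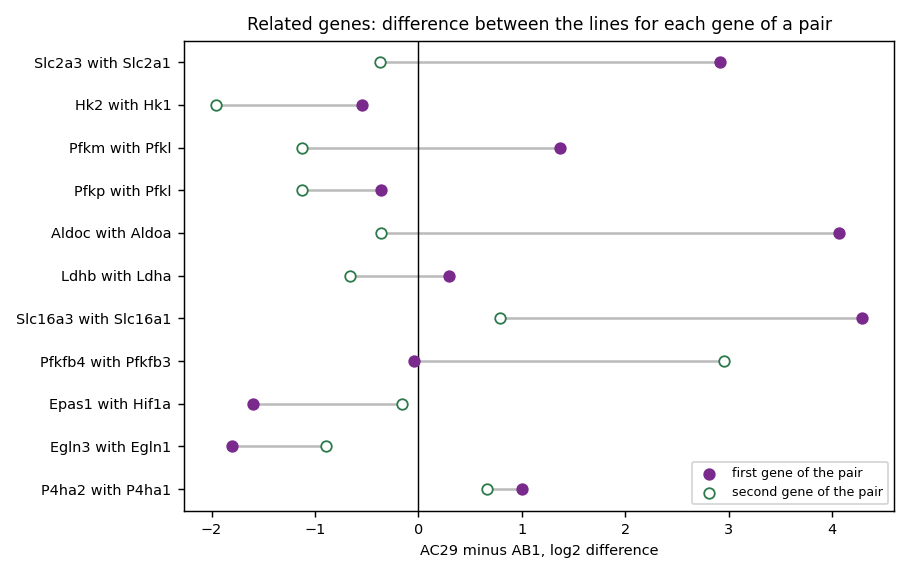
Difference of mean log2 signal, AC29 minus AB1, for the first gene (filled) and the second gene (open) of 11 related pairs. The genes of a pair lie furthest apart for Aldoc with Aldoa and for Slc16a3 with Slc16a1.

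Flasks of 1 line also differed in these genes, a pattern that was noticed after the values were seen. The median SD within a line was 0.17 over the members and 0.12 over all genes tested, and Bnip3 and Slc16a3 had the largest among the members, at 0.46 and 0.45. All genes tested include 6546 at or under the floor in both lines, while no member was. These medians are thus not of like sets, and one for genes with a line above the floor was not computed. AB1 replicate 6 was the lowest of its line for 28 of 38 members (73.7%, against 44.4% of the 11647 genes with a line above the floor). Its median deviation from the AB1 mean was -0.26 over the 13 hypoxia-responsive genes and -0.03 over all those genes. Bnip3 deviated there by -0.68, Slc16a3 by -0.64, Ankrd37 by -0.47, Adm by -0.42, Ndrg1 by -0.35 and Egln3 by -0.31. Vldlr, Bhlhe40 and Hif1a deviated by at most 0.03 in size. In AC29 replicate 14, Hif1a and Egln1 deviated by -0.30 each and Hk1 by -0.45, while Bnip3 (0.32), Hilpda (0.31) and Ankrd37 (0.29) lay above the AC29 mean. Deviations of single genes under the floor in a line, such as Pfkfb3 in AB1 and Epas1 in AC29, are not read. The count of 28 and the median of -0.26 do include such genes, Car9 in AB1 among them. Slc16a3 was itself under the floor in AB1 replicate 6, at 6.04, so its deviation is not exact. Without AB1 replicate 6 the members' counts were 7 higher and 7 lower in AC29, with P4ha2 no longer called and Adm called.

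**Figure D4:**
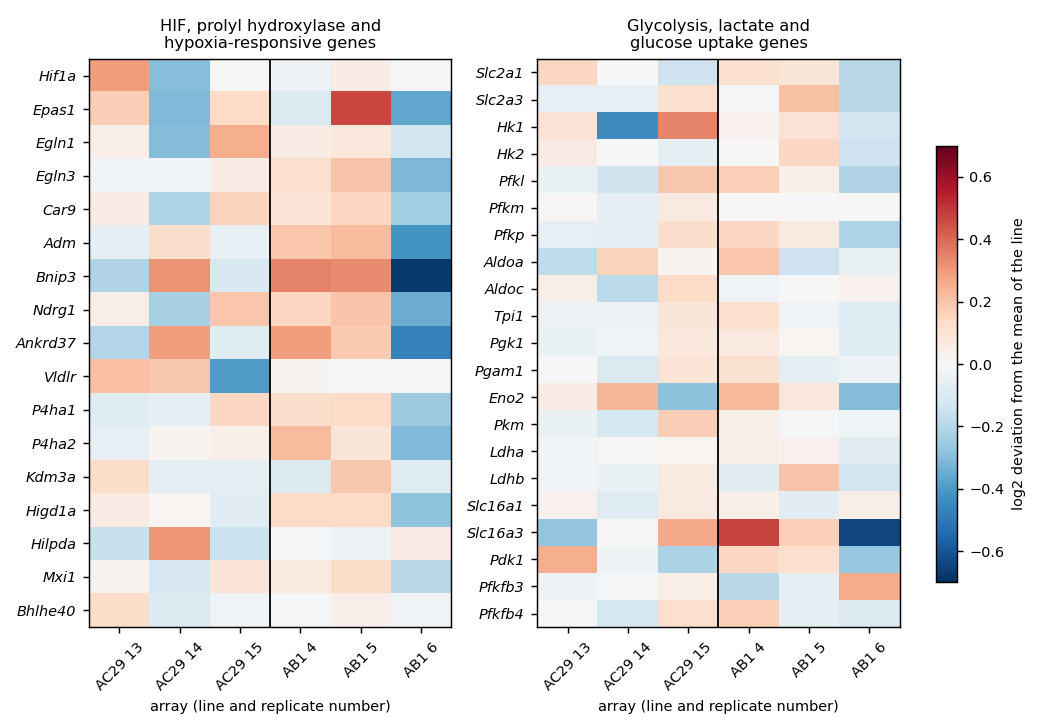
Deviation of each member's log2 signal from the mean of its line, for the 3 AC29 arrays (left of the line in each panel) and the 3 AB1 arrays. Blue is lower and red is higher. AB1 replicate 6 is blue for most hypoxia-responsive genes, with Bnip3 at -0.68.

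Other genes of the pathway, from 8 lists that hold no member, were called higher in AC29 in 10 cases and lower in 10 among 117 tested (17.1%, against 10.9% of all genes tested and 16.4% of those with a line above the floor). Of the 117, 98 had a line above the floor. Each call had an adjusted p of at most 0.000119 in limma. In glycolysis, 2 of 18 further enzymes were higher in AC29 and none was lower (11.1% called, near the share of all genes tested). Eno3, the muscle enolase, read 10.49, 10.74 and 10.49 in AC29, against 9.04, 9.11 and 8.97 in AB1 (2.89-fold), and Tigar, a phosphatase that lowers fructose 2,6-bisphosphate, was 2.38-fold higher. Pgm1, which links glucose to glycogen, was not called at 9.38 in AC29 and 9.08 in AB1. None of 11 other sugar transporters was called in limma, and 6 were at or under the floor in both lines. An unadjusted p under 0.05 was found for 2 of the 11, against 8218 of all 18193 genes tested. Slc2a8 was the brightest of them (7.81 in AC29 and 7.82 in AB1).

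The partners of the lactate carriers differed from each other. Emb, the membrane protein embigin that can escort monocarboxylate transporters, read 9.95, 10.07 and 9.99 in AC29, against 7.56, 7.73 and 7.77 in AB1, with no overlap (4.98-fold higher in AC29). Bsg, the usual escort basigin, was bright in both lines (12.76 in AC29, 12.62 in AB1) and was not called. Slc16a6 was called lower in AC29 but was at or under the floor in both lines.

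At the entry of pyruvate into mitochondria, Mpc1, a subunit of the mitochondrial pyruvate carrier, was 2.90-fold higher in AC29 (11.92 ± 0.11 in AC29 and 10.39 ± 0.04 in AB1, SD, n = 3). Pdp1, the phosphatase that reactivates pyruvate dehydrogenase, was 2.51-fold lower in AC29, and the other 11 of 13 genes, Pdhb among them (11.74 in AC29, 11.41 in AB1), were not called. The called share of 15.4% was near the 16.4% of genes with a line above the floor. In the branches of glycolysis, 3 of 16 genes were higher in AC29 and 2 lower. That made 31.25% called, against 10.9% of all genes tested and 16.4% of those with a line above the floor. Gfpt2, which starts hexosamine synthesis, was 6.15-fold higher in AC29, Ugp2, which makes UDP-glucose, 2.52-fold and H6pd, a pentose phosphate enzyme of the endoplasmic reticulum, 2.28-fold. The AB1 flasks of Gfpt2 read 6.08, 6.28 and 6.10, just over the floor, so its fold is not exact. Pgls, which acts after glucose 6-phosphate dehydrogenase, was 2.48-fold and Psat1, of serine synthesis, 2.63-fold lower in AC29, while the transketolase Tkt (12.49 in AC29, 12.93 in AB1) was not called. Among 11 glycogen genes, the phosphatase-targeting subunit Ppp1r3b had a bound of at least 1.31-fold higher in AC29, Ppp1r3d had one of at least 1.06-fold lower, and Gyg, the glycogen primer, was not called (10.52 in AC29, 10.18 in AB1). With 18.2% called, this list was also near the 16.4% of genes with a line above the floor.

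None of 13 oxygen-sensing genes was called in limma, 9 had an unadjusted p under 0.05 and 6 an adjusted p under 0.05. Of the 11647 genes with a line above the floor, 7233 had an unadjusted p under 0.05 and 6431 an adjusted p under 0.05. The brightest, Elob, part of the ubiquitin ligase that removes HIF alpha subunits, read 12.88 in AC29 and 12.11 in AB1. Among 28 other HIF target genes, 2 were higher in AC29 and 5 lower. That made 25% called, against 10.9% of all genes tested and 16.4% of those with a line above the floor. Vegfa, the vascular growth factor, was 2.93-fold lower in AC29, Car12, another surface carbonic anhydrase, 3.61-fold, Ero1a, an oxidase of the endoplasmic reticulum, 2.92-fold and the secreted Stc2 2.64-fold, and Ccng2, named after its values were seen, 2.48-fold. Edn1, which encodes endothelin-1, was 2.62-fold higher in AC29. Igfbp3 was at least 1.89-fold higher, a bound under 2-fold because all its AB1 flasks were under the floor. Mif, a cytokine, was the brightest not called (13.27 in AC29 and 13.43 in AB1).

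**Figure D5:**
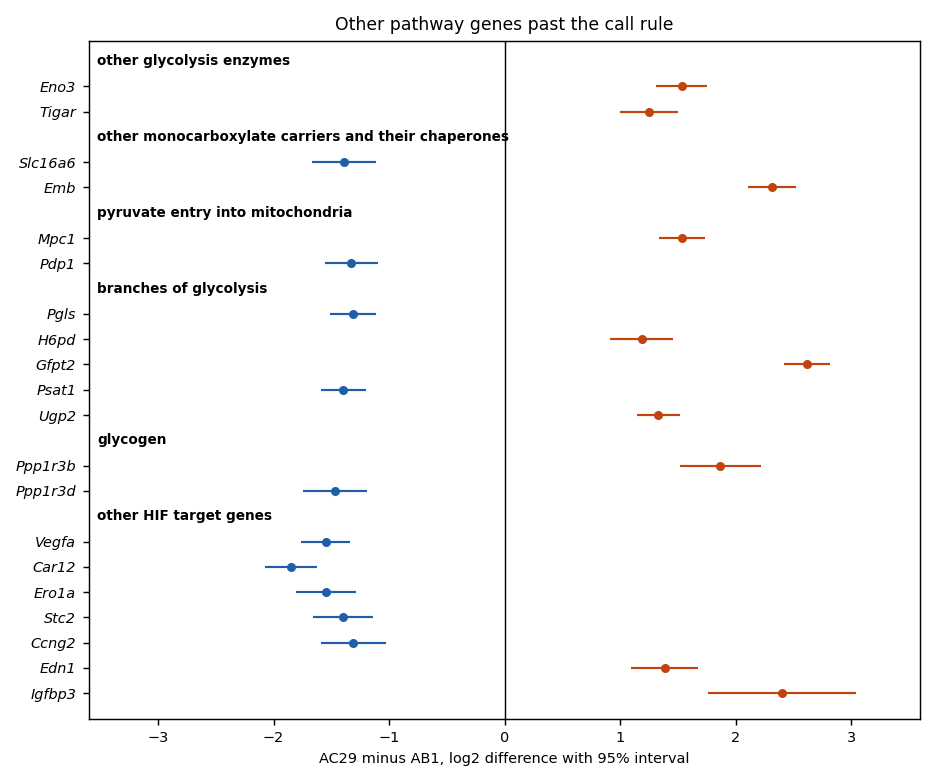
Difference of mean log2 signal, AC29 minus AB1, with its 95% interval for the 20 called genes of the 8 lists that hold no member. Emb and Gfpt2 are furthest toward AC29 among genes above the floor in both lines, and Car12 is furthest toward AB1. Gfpt2 was only just over the floor in AB1.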

How the data were processed

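Per the labels' protocols, total RNA of each flask was made into biotinylated cRNA and hybridised to an Affymetrix 3′ array. The values analysed are the log2 signals that the authors deposited for 45101 probe sets on each array. Per the submitters' processing notes, GCOS, RMA and Partek 6.4 were used, with no role or order given. The log2 scale was taken from these notes and from the range of the values. RMA understates differences of dim and of very bright probe sets.

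The 64 control probe sets were left out of the fit, which is why Gapdh was not tested. Gene names came from the platform annotation, in which 34945 probe sets had 1 symbol, 932 had several and 9160 had none. The linear model AC29 minus AB1 was fitted in R 4.3.3 by lmFit and eBayes of limma 3.58.1 (2-sided tests, 4 residual and 8.92 moderated degrees of freedom), and p-values were adjusted by Benjamini and Hochberg over 18193 genes. It was tested on simulated data. The number of arrays limits the precision. Members and lists were chosen with earlier results of these data known. Named were all members, and the 4 called genes of widest difference in either direction of each other list, with its brightest gene not called. Alternatives were 2 normalizations, a filter on dim genes, 2 probe set rules, another variance model, 2 call rules and leaving out each array.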

Additional observations from a re-analysis of the deposited data

How the results depend on the processing

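Of 531 recomputed member differences under 14 alternatives, 489 kept their direction and their side of the call rule. Of the 14 called members, 9 kept their call under all of them: Slc2a3, Hk1, Pfkm, Aldoc, Slc16a3, Pfkfb3, Egln3, Car9 and Vldlr. With no minimum difference, 15 members were higher and 17 lower in AC29, and 7105 of all genes passed. With limma's treat against a 2-fold difference, 6 members were higher and 3 lower, and 1237 of all genes passed; Bnip3, Epas1, Ndrg1, P4ha2 and Pfkl were lost. With all probe sets of a gene averaged, Epas1 and Pfkl were lost and Adm and Higd1a gained. Each of these averages includes a probe set with a line mean under the floor. Leaving out 1 array gave 7 to 9 members higher and 5 to 7 lower. Differences near 0 changed sign for Pfkfb4 without AB1 replicate 4 or AC29 replicate 14 (-0.098 to 0.043 over the arrays left out) and for Ankrd37 without AB1 replicate 4 (-0.34 to 0.039); the cause was not tested. No related pair reversed in 98 comparisons. No paired analysis was possible because the lines share no replicate number. Values at or under the floor limit what can be said of Epas1 in AC29 and of Aldoc, Pfkfb3 and Car9 in AB1.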
